A study of Homo sapiens with 6 samples.

Results

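The protein-coding genes for mitochondrial ribosomal proteins were followed across 6 mRNA-seq libraries of C4-2B MDVR cells. Members are all protein-coding genes whose GENCODE symbol is MRPL (large subunit) or MRPS (small subunit) followed by a number. There were 78 of them among the 58735 genes of the deposited table, 49 MRPL and 29 MRPS, spread over 21 chromosomes. C4-2B MDVR is a human prostate cancer cell line, a derivative of C4-2B that is resistant to enzalutamide, an antiandrogen that blocks the androgen receptor. PTUPB inhibits both cyclooxygenase-2 and soluble epoxide hydrolase. All 6 libraries came from cells of this 1 line after 2 days of treatment. The control received DMSO, 1 library received 20 µM enzalutamide, 1 received 10 µM PTUPB and 1 received 20 µM PTUPB. The other 2 combined each PTUPB dose with enzalutamide, whose dose is not labelled there and was taken as equal. The study compared expression under PTUPB, enzalutamide and their combination.

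With a single library in each group, no difference between a pair of libraries could be checked against replicates. The p-values below come from limma fitted across all genes to an additive model of PTUPB dose and enzalutamide, and they measure departures from additivity, not the spread of replicate cultures. Values are FPKM as the authors deposited them, fragment counts scaled by exon length and by a library size. That size was not the total of recovered fragments. It was 1.09 times that total in the control, 1.06 with 20 µM PTUPB and 0.91 with 20 µM PTUPB plus enzalutamide. Fitted effects are on the log2(FPKM + 1) scale, which understates changes of low genes. In bulk RNA, fewer cells of a kind and less RNA per cell cannot be told apart.

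Mitochondrial ribosomes translate the 13 mRNAs of the mitochondrial genome, all of which encode subunits of the respiratory chain and ATP synthase. Their RNA is transcribed inside the organelle, while every protein of both subunits is encoded in the nucleus, made in the cytosol and imported. Some of these proteins have bacterial counterparts, and others are found only in mitochondria and replace or cover RNA that was lost. Of the members, 46 were classed as conserved and 32 as mitochondrion-specific. A few symbols mislead: the products of MRPS18A and MRPS30 sit in the large subunit, and that of MRPS36 is a subunit of the 2-oxoglutarate dehydrogenase complex. Large and small subunit below follow the symbol.

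Libraries held 20156523 to 29450436 fragments, fewest with 20 µM PTUPB plus enzalutamide. Defining prostate luminal genes were detected in the control, and KLK3 stood at 105 FPKM there, 0.648 with 20 µM PTUPB and 0.458 with 20 µM PTUPB plus enzalutamide. KRT8 stood at 55.0, 56.7 and 82.1 FPKM in these 3 libraries, KRT18 at 77.2, 71.7 and 106.5 and EPCAM at 80.6, 93.2 and 77.8, so not all luminal markers were low at 20 µM. The summed level of 10 luminal markers lay between 889 and 1118 FPKM in the 4 libraries without 20 µM PTUPB and at 330 and 339 FPKM in the 2 with it. Of 13 markers of blood, stromal, endothelial and basal cells, 12 stayed under 1 FPKM in every library and all 13 summed to 2.68 to 6.67 FPKM. The exception was COL1A1. Fragments from the 13 mitochondrial mRNAs made up 4.78% of the control, 9.48% with enzalutamide, 9.12% with 10 µM PTUPB, 10.4% with 10 µM PTUPB plus enzalutamide, 3.73% with 20 µM PTUPB and 3.68% with 20 µM PTUPB plus enzalutamide. The part of these shifts in the results on mitoribosomal genes was not tested.

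Most of the family was well expressed. Mean FPKM exceeded 10 for 59 of the 78 members, and 77 reached a mean of 1, the level required for testing. The exception was MRPS24 (small subunit), at 0.04 to 0.32 FPKM and 3 fragments in the control, whose exons are shared in part with the read-through gene URGCP-MRPS24. Of the tested members, 74 had at least 100 fragments in every library. The highest mean levels per exon length belonged to MRPL41, MRPL37 and MRPL3. MRPL41, a mitochondrion-specific large-subunit gene, stood at 85.3 FPKM in the control, 92.8 with enzalutamide, 81.4 with 10 µM PTUPB, 87.1 with 10 µM PTUPB plus enzalutamide, 86.0 with 20 µM PTUPB and 137 with 20 µM PTUPB plus enzalutamide. MRPL37, also mitochondrion-specific, stood at 86.8, 91.6, 73.3, 66.2, 87.3 and 133 FPKM in the same order of libraries. MRPL3, which lies near the peptidyl transferase centre, stood at 80.8, 77.9, 60.8, 58.3, 69.9 and 80.5 FPKM. The first 2 were highest in the library with 20 µM PTUPB plus enzalutamide, and MRPL3 was not. At the lower end, MRPL53 ranged from 0.53 to 2.20 FPKM, MRPL38 from 1.18 to 2.72 and MRPL46 from 1.39 to 2.404. MRPL53 shares 45.2% of its exon length with other genes and MRPL38 41.1%. Over 25% was shared by 10 members, whose values are uncertain. For MRPL12, MRPL38, MRPL53, MRPS17 and MRPS28 the shared bases lie wholly or mostly on the same strand. Counting by strand would not separate these genes there. For MRPL9, MRPL43, MRPL51, MRPS18A and MRPS18C they lie wholly or mostly on the opposite strand. No source used here states whether counting was by strand. A further 77 MRP-named genes are of other types, such as pseudogenes, with which reads can be split.

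**Figure D1:**
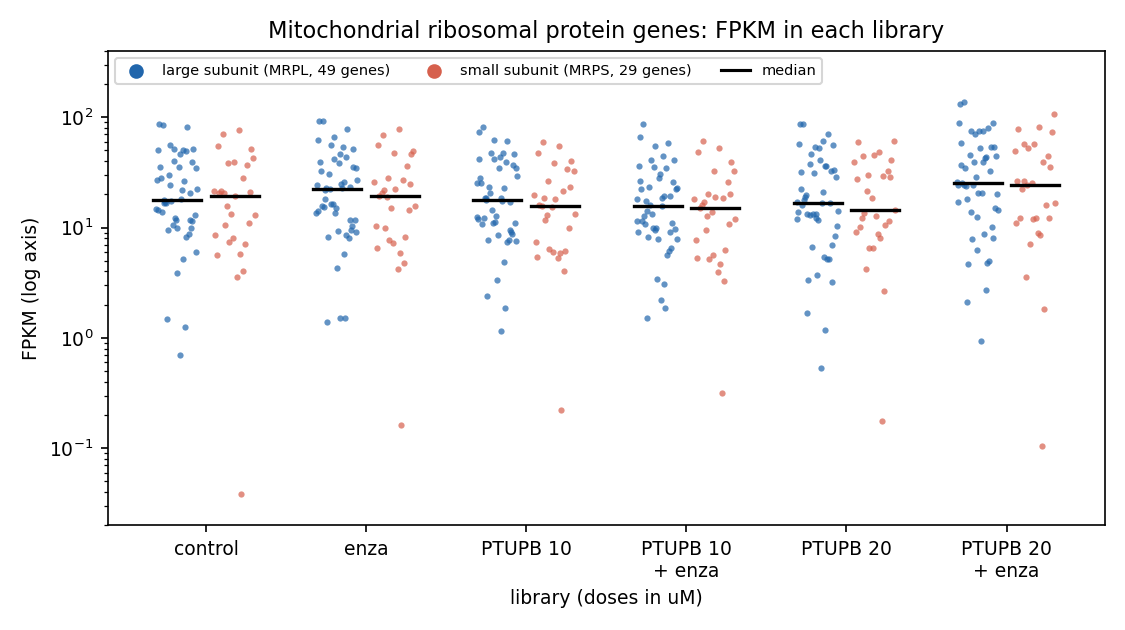
FPKM on a log axis of the 49 large-subunit (blue) and 29 small-subunit (red) genes in each of the 6 libraries, 1 point per gene, with black lines at the medians. Levels span from under 0.1 FPKM for MRPS24 in the control to 137 FPKM for MRPL41 with 20 µM PTUPB plus enzalutamide, the library with the highest medians of both subunits (25.6 and 24.2 FPKM).

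Summed over all members, FPKM was 1953 in the control, 2050 with enzalutamide, 1737 with 10 µM PTUPB, 1558 with 10 µM PTUPB plus enzalutamide, 1878 with 20 µM PTUPB and 2714 with 20 µM PTUPB plus enzalutamide. The combination with 10 µM was thus the lowest of the 6 and the combination with 20 µM the highest. The large subunit summed to 1.89 times the small subunit in the control, and this ratio stayed between 1.86 and 2.02 in all 6 libraries. As a share of all fragments, members made up 0.491% in the control, 0.455% with enzalutamide, 0.417% with 10 µM PTUPB, 0.375% with 10 µM PTUPB plus enzalutamide, 0.462% with 20 µM PTUPB and 0.557% with 20 µM PTUPB plus enzalutamide. The lowest and the highest library were the same on both scales.

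At 20 µM PTUPB, mitoribosomal genes moved in both directions. Of 77 tested members, 7 rose and 10 fell at a Benjamini-Hochberg adjusted p under 0.05 in limma, and 60 were not called. Over all 12960 genes tested, 15.9% rose and 18.2% fell, against 9.09% and 13.0% of the members, so the members were called less often than the background in each direction; this difference was not tested. The median fitted effect over members was 0.21, beside 0.00 over all genes. Among the rising genes were MRPS6, MRPS10, MRPS18C and MRPS30 and the large-subunit genes MRPL2, MRPL52 and MRPL55. Among the falling genes were MRPS17, MRPS25, MRPS27 and MRPS28 and the large-subunit genes MRPL16, MRPL23, MRPL30, MRPL32, MRPL42 and MRPL50. The plot of ranked effects shows the whole family. Counts rest on few degrees of freedom: without the 20 µM PTUPB library 24 members rose and 6 fell, without the control 1 rose and 0 fell, without the enzalutamide library 1 rose and 0 fell, without the 20 µM PTUPB plus enzalutamide library 3 rose, and without either 10 µM library 3 fell.

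**Figure D2:**
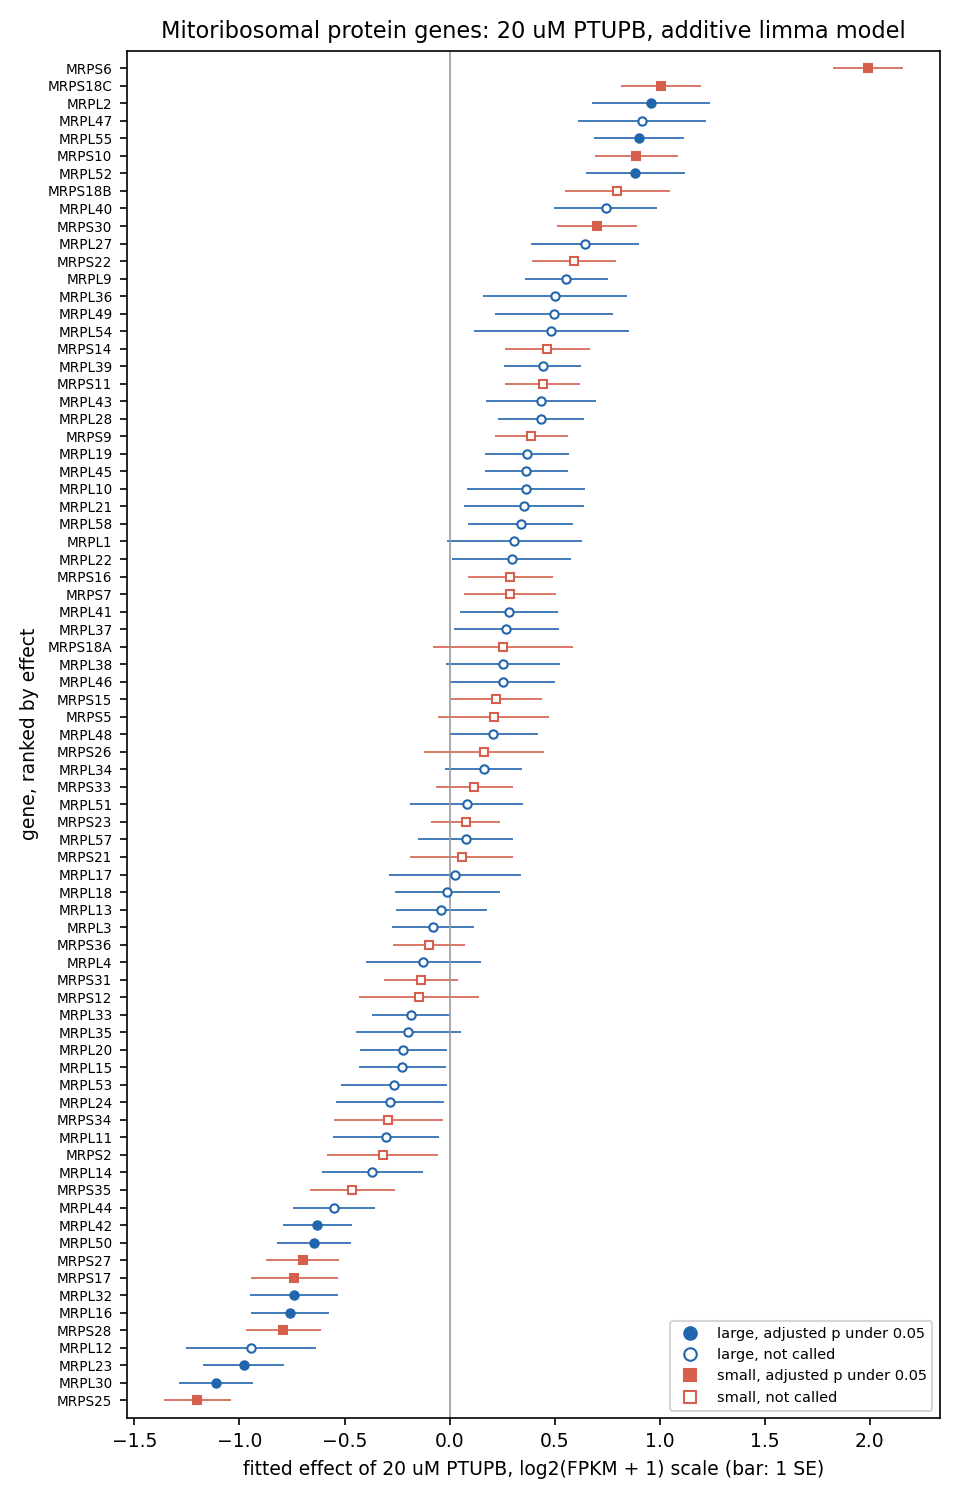
Fitted effect of 20 µM PTUPB on the log2(FPKM + 1) scale for each of the 77 tested genes, ranked, with bars of 1 SE (blue circles for the large and red squares for the small subunit, filled where the adjusted p was under 0.05). MRPS6 lies apart at the top with 1.99, and MRPS25 (-1.20) and MRPL30 (-1.11) are at the bottom.

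MRPS6 had the largest change of the family. It encodes the mitochondrial counterpart of a conserved protein of the small subunit's platform, and the gene (ENSG00000243927) lies on the plus strand of chromosome 21 at 34073224 to 34143034 (GRCh38, by a match to GENCODE 29). Its level was 5.62 FPKM in the control, 6.48 with enzalutamide, 5.39 with 10 µM PTUPB, 5.26 with 10 µM PTUPB plus enzalutamide, 27.4 with 20 µM PTUPB and 26.5 with 20 µM PTUPB plus enzalutamide. The 2 libraries with 20 µM PTUPB stood far above the other 4. Set against its own partner, 20 µM PTUPB gave 4.88 times the control and 4.10 times the enzalutamide library. The fitted effect was 1.99 (SE 0.17, adjusted p = 0.0029 in limma), and it passed the threshold in all 12 alternative fits. SLC5A3, a myo-inositol transporter gene annotated in overlap with MRPS6, stood at 12.1, 19.9, 16.4, 18.5, 19.8 and 12.6 FPKM in the same order, with an effect of 0.02. Its 2 libraries with 20 µM PTUPB were not set apart from the rest.

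The bases before the RefSeq start of MRPS6 are shown because this was the member that moved most, together with those of MRPS10, a riser, and MRPS25, the member that fell most. All are from RefSeq on GRCh38.p14, 5′ to 3′ on the gene's strand, limited to bases outside every GENCODE 29 exon. Capitals mark matches to CCGGAAG on either strand, the core that ETS family factors such as GABPA bind.
MRPS6 (chr21:34073328-34073522, + strand): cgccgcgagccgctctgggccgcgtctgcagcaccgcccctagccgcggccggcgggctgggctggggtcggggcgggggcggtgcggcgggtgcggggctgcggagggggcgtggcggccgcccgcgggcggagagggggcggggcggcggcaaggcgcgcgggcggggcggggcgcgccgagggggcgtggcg
MRPS10 (chr6:42217866-42218111, - strand): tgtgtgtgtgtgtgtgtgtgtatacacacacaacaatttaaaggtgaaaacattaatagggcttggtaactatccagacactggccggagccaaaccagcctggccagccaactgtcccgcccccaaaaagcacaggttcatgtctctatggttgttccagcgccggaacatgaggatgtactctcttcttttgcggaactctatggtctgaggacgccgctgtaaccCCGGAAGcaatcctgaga
MRPS25 (chr3:15065336-15065565, - strand): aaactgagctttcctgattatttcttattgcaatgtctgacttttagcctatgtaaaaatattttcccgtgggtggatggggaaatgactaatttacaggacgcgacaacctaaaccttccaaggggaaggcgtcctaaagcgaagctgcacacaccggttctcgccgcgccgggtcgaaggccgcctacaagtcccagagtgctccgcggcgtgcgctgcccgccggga
The MRPS6 stretch was 88.2% G or C and held no match. It lies before the RefSeq start but inside the GENCODE 29 span of the gene, which starts at 34073224. It is thus not upstream of every annotated start. The MRPS10 stretch held 1 match close to the start, at 50.4% G or C. The MRPS25 stretch held none, at 53.5%.

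MRPS10, a conserved protein of the small subunit's head, stood at 21.3 FPKM in the control, 25.7 with enzalutamide, 19.8 with 10 µM PTUPB, 18.03 with 10 µM PTUPB plus enzalutamide, 39.3 with 20 µM PTUPB and 49.4 with 20 µM PTUPB plus enzalutamide. Both libraries with 20 µM PTUPB were above the other 4, and the effect was 0.89 (SE 0.20, adjusted p = 0.022 in limma). The 3 paralogs of the bacterial S18 protein differed. MRPS18C went from 3.60 FPKM in the control and 4.22 with enzalutamide to 8.77 and 8.88 with 20 µM PTUPB without and with enzalutamide, and its effect was 1.00 (SE 0.19, adjusted p = 0.015), though 40.2% of its exon length is shared with other genes, chiefly ABRAXAS1. MRPS18B had an effect of 0.80 and an adjusted p of 0.055 in limma, which missed the threshold. It stood at 42.3 FPKM in the control, 60.5 with 20 µM PTUPB and 106 with 20 µM PTUPB plus enzalutamide. MRPS18A, whose product belongs to the large subunit, had an effect of 0.26 with an adjusted p of 0.58. MRPS30, the other large-subunit protein with a small-subunit name, rose: it stood at 7.06, 8.21, 6.10, 6.21, 10.6 and 15.8 FPKM in the order given above, and its effect was 0.70 (SE 0.19, adjusted p = 0.039). Both libraries with 20 µM PTUPB were above all others.

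Among large-subunit genes, MRPL2 encodes a conserved protein near the peptidyl transferase centre. It stood at 11.7 FPKM in the control, 11.6 with enzalutamide, 9.51 with 10 µM PTUPB, 9.17 with 10 µM PTUPB plus enzalutamide, 16.8 with 20 µM PTUPB and 32.8 with 20 µM PTUPB plus enzalutamide. The 2 libraries with 20 µM PTUPB were the highest, but they differed from each other by 1.95 times, and the effect of 0.96 (SE 0.28) had an adjusted p of 0.047 in limma. MRPL55 and MRPL52, both mitochondrion-specific, had the same order of libraries at the top. MRPL55 went from 20.4 FPKM in the control to 32.3 with 20 µM PTUPB and 53.5 with 20 µM PTUPB plus enzalutamide (effect 0.90, SE 0.21, adjusted p = 0.026). MRPL52 went from 5.997 to 10.4 and 20.1 FPKM in the same 3 libraries (effect 0.88, SE 0.24, adjusted p = 0.036). MRPL47 had the fourth largest effect of all members, 0.92, without passing the threshold (SE 0.30, adjusted p = 0.065). Its 6 values were 38.9, 35.3, 36.6, 26.0, 56.1 and 89.4 FPKM, again highest with 20 µM PTUPB plus enzalutamide.

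**Figure D3:**
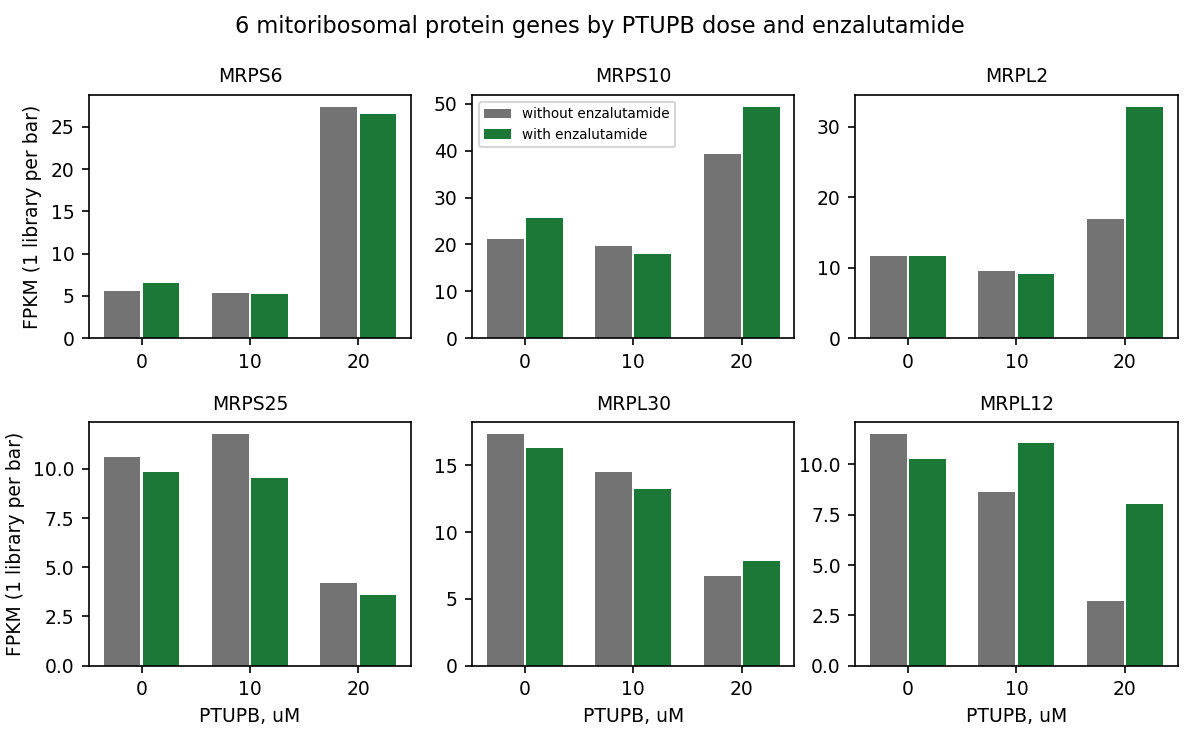
FPKM of 6 genes at 0, 10 and 20 µM PTUPB without (grey) and with (green) enzalutamide, 1 library per bar, so there are no error bars. MRPS6, MRPS10 and MRPL2 are highest at 20 µM PTUPB and MRPS25 and MRPL30 lowest there, while MRPL12 is at 3.21 FPKM without and 8.06 FPKM with enzalutamide at that dose.

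The lowest effect belonged to MRPS25, a mitochondrion-specific protein of the small subunit (ENSG00000131368, minus strand of chromosome 3, 15042460 to 15065335). It stood at 10.6 FPKM in the control, 9.83 with enzalutamide, 11.8 with 10 µM PTUPB, 9.55 with 10 µM PTUPB plus enzalutamide, 4.19 with 20 µM PTUPB and 3.59 with 20 µM PTUPB plus enzalutamide. Both libraries with 20 µM PTUPB were below all others, at 2.54 times below the control and 2.74 times below the enzalutamide library. The effect was -1.20 (SE 0.16, adjusted p = 0.0062 in limma); 22.2% of its exon length overlaps other genes, chiefly NR2C2. The other called genes of this subunit were MRPS28 (-0.79, adjusted p = 0.023), MRPS17 (-0.74, adjusted p = 0.043) and MRPS27, a pentatricopeptide repeat protein (-0.70, adjusted p = 0.029). In all 3, both libraries with 20 µM PTUPB were below the other 4. MRPS28 shares 35.8% of its exon length with other genes and MRPS17 27.0%, so their values are among the uncertain ones.

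In the large subunit, MRPL30 fell most. It stood at 17.3 FPKM in the control, 16.3 with enzalutamide, 14.5 with 10 µM PTUPB, 13.2 with 10 µM PTUPB plus enzalutamide, 6.72 with 20 µM PTUPB and 7.81 with 20 µM PTUPB plus enzalutamide. The effect was -1.11 (SE 0.17, adjusted p = 0.0090 in limma), and both 20 µM libraries were lowest. MRPL23, at the mouth of the exit tunnel through which new proteins leave, stood at 9.41, 8.19, 7.64, 8.15, 3.36 and 4.64 FPKM in the same order (effect -0.98, SE 0.19, adjusted p = 0.016). MRPL24 and MRPL45, which also line the exit, were not called, with effects of -0.28 and 0.37 and adjusted p-values of 0.42 and 0.20. MRPL16, which helps place transfer RNA at the peptidyl transferase centre, fell (-0.76, adjusted p = 0.029), as did MRPL32, which is cut to its mature form by the mitochondrial m-AAA protease (-0.74, adjusted p = 0.042), and the mitochondrion-specific MRPL50 (-0.65, adjusted p = 0.039) and MRPL42 (-0.63, adjusted p = 0.034). MRPL3 was not called (-0.08, adjusted p = 0.77), so the 3 members of the peptidyl transferase region gave a rise, a fall and no call.

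MRPL12 had unlike values in the 2 pairs. Its product forms the stalk that recruits translation factors. The level was 11.5 FPKM in the control, 10.3 with enzalutamide, 8.66 with 10 µM PTUPB, 11.0 with 10 µM PTUPB plus enzalutamide, 3.21 with 20 µM PTUPB and 8.06 with 20 µM PTUPB plus enzalutamide. The 20 µM PTUPB library alone was far below the rest, at 3.59 times below the control, against 1.28 times below for the pair with enzalutamide. The fitted effect of -0.95 (SE 0.31) missed the threshold with an adjusted p of 0.063 in limma, and 68.2% of the gene's exon length is shared with AC139530.2 and other genes. The stalk base proteins MRPL10 and MRPL11 were not called either, at 0.36 (adjusted p = 0.35) and -0.30 (adjusted p = 0.38). Other members with special roles that were not called were MRPL58, a peptidyl-tRNA hydrolase that rescues stalled ribosomes (0.34, adjusted p = 0.33), the decoding-site protein MRPS12 (-0.14, adjusted p = 0.72), MRPS22 (0.59, adjusted p = 0.069), MRPS34 (-0.29, adjusted p = 0.42), MRPL44, which has a ribonuclease III fold (-0.55, adjusted p = 0.076), and MRPS36 (-0.10, adjusted p = 0.68). The small-subunit genes MRPS7 and MRPS21 and the large-subunit gene MRPL33 had effects of 0.29, 0.06 and -0.18, with adjusted p-values of 0.35, 0.87 and 0.48.

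The 2 pairs at 20 µM, each against its own partner without PTUPB, share no library. In both, 5 members were at least 1.5-fold higher on the log2(FPKM + 1) scale (MRPL52, MRPL55, MRPS10, MRPS18C and MRPS6) and 7 at least 1.5-fold lower (MRPL16, MRPL23, MRPL30, MRPL32, MRPL42, MRPS25 and MRPS28). Over all genes tested, 14.2% were that much higher in both pairs and 17.2% lower, above the members' shares. At 2-fold, 1 member was higher in both pairs, MRPS6, and 1 lower, MRPS25 (background 6.1% and 8.8%). Across the 77 members, the differences of the 2 pairs had a Pearson correlation of 0.776 and a Spearman correlation of 0.746, as a description over genes, which are not replicates and share their libraries. For the 2 pairs at 10 µM, these were 0.354 and 0.198.

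**Figure D4:**
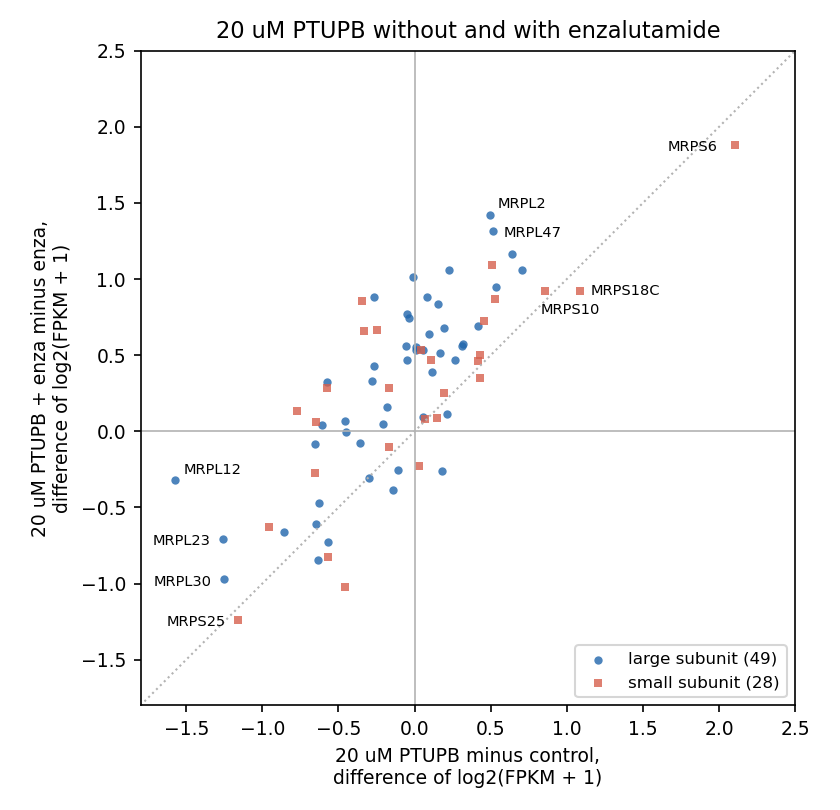
Each of the 77 tested genes by its difference of log2(FPKM + 1) between 20 µM PTUPB and control (horizontal axis) and between 20 µM PTUPB plus enzalutamide and enzalutamide (vertical axis), with a dotted line where both are equal. Of the 77 points, 62 lie above the line, and the medians are -0.03 and 0.39; MRPS6 and MRPS25 are farthest from the origin.

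Without enzalutamide, the members at 20 µM lay on both sides of their control level. The quartiles of their differences were -0.45 and 0.21 (all genes, -0.55 and 0.48). The median difference was -0.03, with 37 members above 0 (49.5% of all genes were) and 40 below, 5 at least 1.5-fold higher and 14 at least 1.5-fold lower (background 20.7% and 23.9%). With enzalutamide, the median was 0.39, with 55 above 0 (50.3% of all genes) and 22 below, 24 at least 1.5-fold higher and 10 lower (background 25.5% and 26.9%). The fitted effect of 20 µM PTUPB averages these 2 pairs. Its median over members was 0.48 without the 20 µM PTUPB library and -0.10 without the 20 µM PTUPB plus enzalutamide library.

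From 10 to 20 µM PTUPB, more members rose than fell. In limma, 16 rose and 4 fell at an adjusted p under 0.05, where 16.5% of all genes rose and 16.9% fell, so that 20.8% of the members rose and 5.19% fell; the difference from the background was not tested. The 16 that rose were MRPL2, MRPL9, MRPL19, MRPL28, MRPL39, MRPL40, MRPL47, MRPL52, MRPL55, MRPS6, MRPS7, MRPS9, MRPS10, MRPS18B, MRPS18C and MRPS30, and those that fell were MRPL23, MRPL30, MRPL32 and MRPS25. The median effect was 0.36 over members and 0.02 over all genes. MRPS6 again had the largest effect, 2.15 (adjusted p = 0.0027), followed by MRPS18B at 1.29 (adjusted p = 0.016) and MRPL2 at 1.25 (adjusted p = 0.023). Without the 20 µM PTUPB library 37 rose, without either 10 µM library 1 rose, without the control or the enzalutamide library 6 rose, and without the 20 µM PTUPB plus enzalutamide library 9 rose. Without enzalutamide the median difference was 0.10, with 44 members above 0 (49.9% of all genes), 11 at least 1.5-fold higher and 7 lower (background 21.3% and 24.2%). On the TPM scale these were 22 and 6, beside 4590 and 2578 of the 12960 genes. With it the median was 0.74, with 63 above 0 (51.3%), 45 at least 1.5-fold higher and 7 lower (background 26.8% and 26.1%).

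For 10 µM PTUPB, averaged over the pairs without and with enzalutamide, most members had a fitted effect below 0, and none was called. The median fitted effect was -0.27, with 69 of 77 members below 0, beside -0.03 over all genes. In limma, 0 of 77 members and 0 of 12960 genes (0.0% in each direction) reached an adjusted p under 0.05; at an unadjusted p under 0.05 there were 0 members and 480 genes, and limma-voom on recovered fragments also called 0 members. The lowest effects were those of MRPS34 (-0.51), MRPL58 (-0.50) and MRPS18A (-0.50), and the highest those of MRPL53 (0.34), MRPL46 (0.26) and MRPL38 (0.26), all with an adjusted p of 0.98. MRPS34, a mitochondrion-specific protein of the small subunit, stood at 76.9 FPKM in the control, 77.5 with enzalutamide, 55.0 with 10 µM PTUPB, 52.5 with 10 µM PTUPB plus enzalutamide, 48.8 with 20 µM PTUPB and 81.0 with 20 µM PTUPB plus enzalutamide. It was low in 3 of the 4 libraries with PTUPB. In the pair without enzalutamide 56 members were below 0 and 0 were 1.5-fold higher or lower (background 4.61% and 2.69%), and in the pair with enzalutamide 73 were below 0, including all 28 tested MRPS genes, and 8 were at least 1.5-fold lower and 0 higher (background 5.61% and 6.16%). Below 0 were 54.4% and 56.6% of all genes in these 2 pairs. Rescaled to TPM, which sets every library to the same total, 71 members were below 0 in the pair without enzalutamide and 19 were at least 1.5-fold lower, while 10372 and 2288 of the 12960 genes were. In the pair with enzalutamide the TPM scale gave 71 and 5 members, beside 6280 and 749 of the 12960 genes. Without the library of 10 µM PTUPB plus enzalutamide, the large-subunit median effect was -0.00.

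The enzalutamide coefficient called none of the members. In limma, 0 of 77 members and 0 of 12960 genes (0.0% in each direction) reached an adjusted p under 0.05, with 1 member (MRPL52) and 626 genes at an unadjusted p under 0.05, and limma-voom called 0 members. The median effect was 0.13, with 61 members above 0, beside 0.01 over all genes. Without either 20 µM PTUPB library, the medians of the large and the small subunit were -0.05 and -0.01. The highest were MRPL53 (0.49), MRPL52 (0.49) and MRPL43 (0.44), and the lowest MRPL44 (-0.20), MRPS25 (-0.19) and MRPL42 (-0.15), all with an adjusted p of 0.92. MRPL43, a mitochondrion-specific gene that shares 36.9% of its exon length with others, stood at 10.48 FPKM in the control, 16.3 with enzalutamide, 10.9 with 10 µM PTUPB, 9.98 with 10 µM PTUPB plus enzalutamide, 13.2 with 20 µM PTUPB and 24.4 with 20 µM PTUPB plus enzalutamide. It was higher with enzalutamide at 0 and at 20 µM PTUPB and not at 10 µM.

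Across the family, adding enzalutamide shifted the median member by 0.05 at 0 µM PTUPB, by -0.14 at 10 µM and by 0.43 at 20 µM, while all genes shifted by -0.00, -0.01 and 0.04. At 0 µM, 48 members were higher (49.3% of all genes), 1 by at least 1.5-fold and 0 lower by as much (background 5.73% and 3.78%). At 10 µM, 18 were higher (48.6%), 0 by at least 1.5-fold, and 2 were lower by as much (background 4.44% and 5.27%). At 20 µM, 70 of 77 members were higher with enzalutamide (53.1% of all genes were) and 32 were at least 1.5-fold higher and 0 lower (background 13.1% and 10.7%). Rescaled to TPM, all genes shifted by -0.41, -0.05 and -0.24 at the 3 doses. Relative to that shift the members moved by 0.04, -0.14 and 0.37, beside 0.05, -0.13 and 0.39 in FPKM. Not relative to it, the TPM median at 20 µM was 0.13, with 51 members above 0, 7 at least 1.5-fold higher and 1 lower, so that most of the 32 were under that fold on this scale (all genes, 934 of 12960 higher and 3625 lower). At 0 µM the direction turned on the TPM scale, with 5 members above 0 and 72 below, while 1978 and 10942 of the 12960 genes were. The library of 20 µM PTUPB plus enzalutamide is also the shallowest of the 6.

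A term for enzalutamide by linear PTUPB dose called none of the members. In limma, 0 members and 0 of 12960 genes (0.0% in each direction) reached an adjusted p under 0.05, with 4 members and 1219 genes at an unadjusted p under 0.05. Limma-voom called 0 members, and the TPM scale 1. The median of this term was 0.36 over members, with 62 above 0, and 0.04 over all genes. It was largest for MRPL12 at 1.25 (SE 0.32, adjusted p = 0.45), followed by MRPS18A at 1.21 and MRPL1 at 1.15. MRPS18A stood at 38.5 FPKM in the control, 28.4 with enzalutamide, 26.5 with 10 µM PTUPB, 20.2 with 10 µM PTUPB plus enzalutamide, 30.1 with 20 µM PTUPB and 52.3 with 20 µM PTUPB plus enzalutamide. Enzalutamide thus went with a lower value at the first 2 doses and a higher one at the third. MRPL1, a conserved large-subunit gene, stood at 14.7, 13.5, 12.3, 11.4, 12.03 and 25.7 FPKM in the same order, with the last library alone high.

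**Figure D5:**
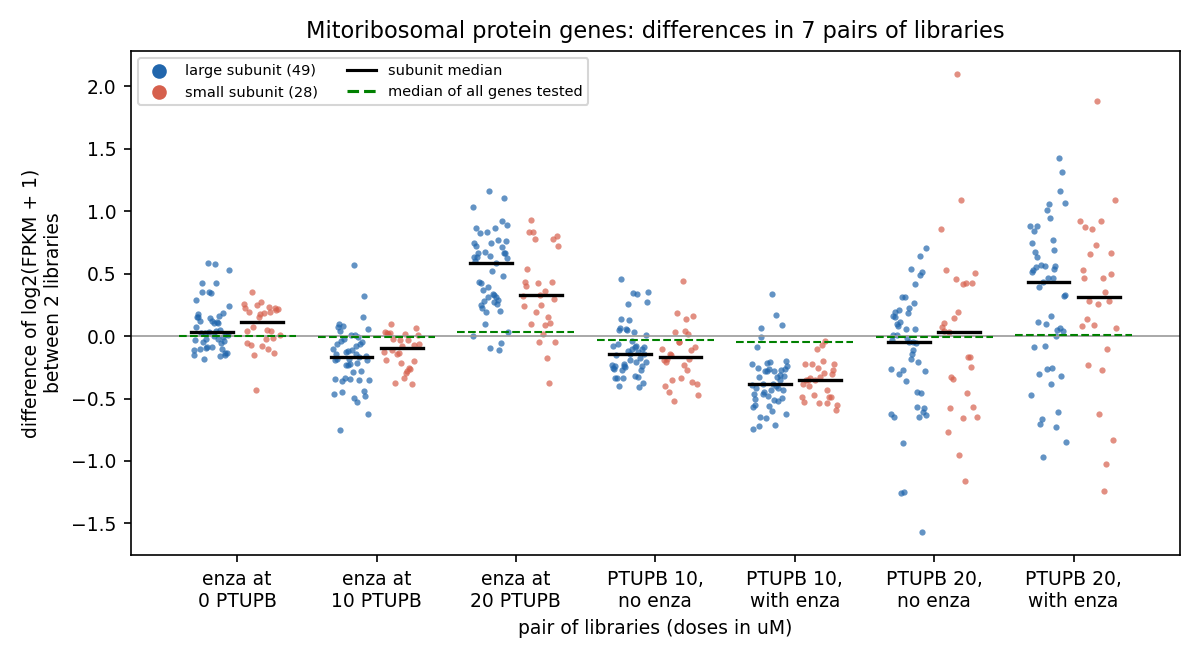
Difference of log2(FPKM + 1) between 2 libraries for each of the 49 large-subunit (blue) and 28 small-subunit (red) genes tested, in 7 pairs, with black lines at the subunit medians and green dashes at the median of all genes tested. Enzalutamide at 20 µM PTUPB has the highest medians (0.59 and 0.33), and 10 µM PTUPB with enzalutamide the lowest (-0.38 and -0.35).

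The 2 subunits were set side by side by their fitted effects. At 20 µM PTUPB, 3 of 49 MRPL genes rose and 6 fell, and 4 of 28 MRPS genes rose and 4 fell, with medians of 0.21 and 0.19, where 15.9% of all genes rose and 18.2% fell. For 20 against 10 µM the medians were 0.34 and 0.48, with 9 rising and 3 falling in the large and 7 rising and 1 falling in the small subunit (all genes, 16.5% and 16.9%). At 10 µM they were -0.26 and -0.28, and for enzalutamide 0.14 and 0.12. For the term of enzalutamide by PTUPB dose the medians were 0.48 and 0.17, with 42 of 49 large-subunit and 20 of 28 small-subunit genes above 0. Where enzalutamide was added at 20 µM they were 0.59 and 0.33, with 25 of 49 large-subunit and 7 of 28 small-subunit genes at least 1.5-fold higher (all genes, 13.1%). Medians over genes are descriptions, and none of these differences was tested. By evolutionary class, 4 conserved members rose and 5 fell of 45 tested at 20 µM PTUPB, and 3 mitochondrion-specific members rose and 5 fell of 32. Each of these shares is below that of all genes given above.

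The cytosolic ribosomal protein genes had a similar median at 20 µM PTUPB (0.20) with fewer calls: 2 of 79 rose and 5 fell (all genes, 15.9% and 18.2%). RPS20 and RPS27L rose, and RPL22, RPL22L1, RPL23A, RPL7A and RPL7L1 fell. The set follows the symbol, so paralogs such as RPS27L, RPL22L1 and RPL7L1 count in it. Their summed level was 20917 FPKM in the control, 27660 with enzalutamide, 21936 with 10 µM PTUPB, 21816 with 10 µM PTUPB plus enzalutamide, 22226 with 20 µM PTUPB and 33142 with 20 µM PTUPB plus enzalutamide, so that they too were highest in that combination. When enzalutamide was added at 20 µM PTUPB, 38 of 79 were at least 1.5-fold higher (all genes, 13.1%). But on the TPM scale 4 were, and 3 were lower, beside 934 and 3625 of 12960 genes. At 0 µM PTUPB, enzalutamide shifted their median by 0.40 and that of the mitoribosomal genes by 0.05. On the TPM scale these shifts were -0.03 and -0.37, beside -0.41 for all genes. The 13 mitochondrial mRNAs, which the mitoribosome translates, summed to 46488 FPKM in the control, 103920 with enzalutamide, 94507 with 10 µM PTUPB, 105580 with 10 µM PTUPB plus enzalutamide, 36832 with 20 µM PTUPB and 42526 with 20 µM PTUPB plus enzalutamide. They were high in the 3 libraries in the middle of that order. Of them, 0 rose and 5 fell from 10 to 20 µM PTUPB (all genes, 16.5% and 16.9%). The median effect over the 13 was -1.16, where the mitoribosomal genes had 0.36. These medians were not tested against each other.

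Other genes of mitochondrial translation gave mixed calls at 20 µM PTUPB, where 15.9% of all genes tested rose and 18.2% fell. The lists are small, and their shares were not tested against that background. Of 5 mitoribosomal proteins with other names, CHCHD1 (-0.92) and PTCD3 (-1.04) fell and 0 rose, while DAP3, AURKAIP1 and GADD45GIP1 were not called. Among 14 translation factors, GUF1, MTIF2 and MTIF3 rose and GFM2 fell, and TUFM, which delivers transfer RNA to the ribosome, was not called (-0.40, adjusted p = 0.22). The largest of these effects were 0.88 for MTIF3, an initiation factor, and 0.76 for GUF1, a GTPase. Of 19 genes for charging mitochondrial transfer RNA, 2 rose (QRSL1 and RARS2) and 5 fell. The largest falls were those of IARS2 (-1.29), LARS2 (-1.24) and MARS2 (-1.22), the isoleucyl-, leucyl- and methionyl-tRNA synthetases. Of 24 mitoribosome assembly genes, NGRN rose (0.64) and RCC1L and RPUSD4 (-0.65) fell, while MRM1 (-0.82, adjusted p = 0.064) and MPV17L2 (0.66, adjusted p = 0.052) missed the threshold. Of 14 genes of mitochondrial transcription and RNA handling, SUPV3L1, an RNA helicase of the degradosome, rose by 1.47 and MTERF1, TFB2M and TWNK fell, while TFAM was not called (-0.68, adjusted p = 0.080). Among 11 regulators, DDIT3 rose by 4.29 and ATF5, ESRRA and MYC fell. MYC, a transcription factor known to drive ribosome genes, stood at 98.5 FPKM in the control, 94.5 with enzalutamide, 71.7 with 10 µM PTUPB, 60.9 with 10 µM PTUPB plus enzalutamide, 2.48 with 20 µM PTUPB and 3.27 with 20 µM PTUPB plus enzalutamide (effect -4.66). The 20 µM libraries were far below the others for MYC. GABPA, NRF1 and YY1, factors known to bind promoters of nuclear genes for mitochondria, were not called, with effects of 0.20, 0.36 and 0.31 and adjusted p-values of 0.41, 0.17 and 0.25.

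Promoters of the family share short motifs. RefSeq windows of 300 bases, 250 before to 50 after the start (GRCh38.p14), were matched for 69 of 78 members, and 11 of these have more than 1 window. The ETS core CCGGAAG, read on both strands, was in 30 of 69 (43.5%), in 24.3% of 8563 tested protein-coding genes and in 12.2% of all 27305 genes with a window. The YY1 motif AAGATGGC was in 21 of 69 (30.4%), against 7.04% and 3.52%. At least 1 of these 2 was in 43 (62.3%, against 29.4% and 14.9%), and both were in 8. The shares were alike in the subunits, 42.9% of MRPL and 44.4% of MRPS windows for the ETS core and 31.0% and 29.6% for YY1. The NRF1 motif GCGCATGC was in 6 of 69 (8.70%, against 6.94% of tested genes), the E-box CACGTG that MYC binds in 9 (13.0%, against 13.1%) and the ATF4-CHOP element TGATGNAA in 1 (1.45%, against 2.48%). The ETS core ends in AAG, with which the YY1 motif starts, so 1 stretch can match both, and a match describes the sequence, not binding.

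Matches in members called at 20 µM PTUPB are set side by side with the bases around them. Sites were found by exact match, so every site of a motif holds the same letters by construction. Of called members with a window, 3 of 6 risers and 4 of 8 fallers had the YY1 motif, and 3 of 6 and 2 of 8 the ETS core. Each line gives 8 bases on either side, on the strand that reads AAGATGGC, in capitals.
MRPL32 (chr7:42932146-42932169, - strand, falling): ttcgggtaAAGATGGCggagcgcg
MRPL42 (chr12:93467514-93467537, + strand, falling): attgaaacAAGATGGCgggttcgt
MRPL50 (chr9:101398580-101398603, - strand, falling): tctcatcgAAGATGGCggcgcgat
MRPL52 (chr14:22829781-22829804, + strand, rising): gatgacccAAGATGGCggagccgt
MRPL52 (chr14:22829815-22829838, + strand, rising): ccagattcAAGATGGCgacttcct
MRPS10 (chr6:42217837-42217860, - strand, rising): ggaccggcAAGATGGCggcgcgga
MRPS27 (chr5:72320209-72320232, - strand, falling): tacgctccAAGATGGCtgcctcca
MRPS30 (chr5:44808952-44808975, + strand, rising): cgcgggcaAAGATGGCggcggcca
The ETS cores of called members, on the strand that reads CCGGAAG, are these.
MRPL16 (chr11:59810770-59810792, + strand, falling): cagtggggCCGGAAGttgtgttc
MRPL30 (chr2:99181031-99181053, - strand, falling): accacttcCCGGAAGcgcagcag
MRPL52 (chr14:22829874-22829896, - strand, rising): cggggtagCCGGAAGtaggcgtg
MRPS10 (chr6:42217869-42217891, - strand, rising): ctgtaaccCCGGAAGcaatcctg
MRPS18C (chr4:83455828-83455850, + strand, rising): ctcgcggaCCGGAAGcacgcata
MRPS10 and MRPL52, which rose, appear in both sets. Only in the first are MRPS30, which rose, and MRPL32, MRPL42, MRPL50 and MRPS27, which fell. Only in the second are MRPS18C, which rose, and MRPL16 and MRPL30, which fell. Whether either motif goes with direction was not tested.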

How the data were processed

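The authors deposited 1 table of FPKM per gene for 6 mRNA-seq libraries (paired-end, per the labels' protocols). Per the submitters' processing notes, HISAT and Cufflinks were used; versions, build and strand setting are not given in the sources used here. Each FPKM times its gene's GENCODE 29 exon length was a whole multiple of 1 step per library (100% of values, within 0.05), so fragments were recovered. All 58735 identifiers matched, and 27414 genes were at 0 throughout.

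The test set was the 12960 genes whose FPKM averaged at least 1, taken as log2(FPKM + 1) with limma 3.58.1 in R 4.3.3 (intensity trend, two-sided, Benjamini-Hochberg over all genes, threshold 0.05). The additive model (PTUPB at 3 levels plus enzalutamide) has 2 residual degrees of freedom and the interaction model 1. The additive fit was also run on simulated counts with changes at 20 µM PTUPB only. Such counts hold no enzalutamide effect and no interaction, so that run does not check the p-values given here. Python 3.11.15 was used for the rest. Named genes are the 5 highest and 5 lowest at 20 µM, the 3 highest and 3 lowest for enzalutamide, for 10 µM and by level, members of known special role, and up to 4 genes of each other list by size of effect; further called or well-known genes were named after their values were seen. Members and lists were chosen with earlier results of these data known.

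Alternatives were a pseudocount of 0.1, no filter, a mean of 5 or more, TPM, total-fragment scaling, limma-voom, and each library left out. Leaving out members with over 25% shared exons, and the medians without each library, were added after seeing the data.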

Additional observations from a re-analysis of the deposited data

How the results depend on the processing

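No paired analysis was possible because each group has 1 library, so the groups share fewer than 2 replicate numbers. MRPS6 stayed called in all 12 alternatives for 20 µM PTUPB and for 20 against 10 µM. MRPL42, MRPL50 and MRPS17, which fell at 20 µM, were not called on the TPM scale, nor was MRPS17 with limma-voom. For members rising at 20 µM (7), the count was 1 without the filter, 11 with limma-voom and 1 to 24 with 1 library left out; for those falling (10), 2 without the filter and 0 to 10. For 20 against 10 µM, rising members (16) numbered 1 without the filter, 33 on the TPM scale and 1 to 37 with 1 library left out, and falling members (4) numbered 1 without the filter and 0 to 5. On the TPM scale 1 member was called for the interaction. A fit without 1 library has fewer degrees of freedom, and a call lost there does not show that a change rests on that library.

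On the TPM scale, the small-subunit median was -0.14 for enzalutamide and -0.41 for 10 µM PTUPB. Between pairs it gave -0.39 (large) and -0.30 (small) for enzalutamide without PTUPB, 0.0151 (small) for enzalutamide at 20 µM, and -0.45 (large) and -0.48 (small) for 10 µM PTUPB without enzalutamide; all genes moved too. With 1 library left out, the 10 µM median ran from -0.48 to -0.0016 (large) and from -0.42 to -0.12 (small), and their difference from -0.0518 to 0.12. The small-subunit median at 20 µM ran from -0.014, without the 20 µM PTUPB plus enzalutamide library, to 0.40. The subunit difference for 20 against 10 µM (-0.14) was -0.05 and -0.0293 without the 10 µM and the 20 µM PTUPB library. The cause of these shifts was not tested. Depth limits few members: the fewest fragments of a tested member in a library were 17.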
